A study of Mus musculus with 12 samples.

Results

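The normal day-night difference of the mouse kidney was read from 6 wild-type libraries out of the 12 in the series. They were chosen by their labels alone: 3 whole-kidney libraries taken at ZT16 (replicates 1, 3 and 5) against 3 taken at ZT4 (replicates 1, 3 and 5). Zeitgeber time (ZT) counts hours from lights on, so ZT4 lies in the light phase, when mice mostly rest, and ZT16 lies in the dark phase, when they mostly move and eat. The wild-type (WT) mice were littermates of a conditional knockout (KO) that loses Arntl, the gene of the clock transcription factor BMAL1, from renal tubule cells. In that model, Bmal1lox/lox/Pax8-rtTA/LC1, doxycycline (DOX, 2 mg/ml in the drinking water for 2 weeks, begun at 8 weeks of age) turns on a Cre recombinase through a Pax8 promoter that acts in the tubule. All strains had a C57BL/6J background, and the mice ate standard chow freely under 12 h of light and 12 h of dark. The protocol, shared by all 12 samples, describes DOX for the conditional mice and does not say which transgenes the wild-type mice carried or whether they drank it. Whether each library is a different mouse is not stated either, so a p-value here reflects library-to-library spread, part of which may be technical. The 6 KO libraries, 3 at each time, entered the fit for the shared estimate of spread and for the test of whether a day-night difference depended on genotype.

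The circadian clock is a feedback loop of transcription that runs in nearly every cell. BMAL1 pairs with CLOCK or NPAS2, binds E-box sequences and switches on the Period and Cryptochrome genes, whose proteins return to the nucleus and block that pair. A second loop is formed by the nuclear receptors REV-ERB, which repress Arntl and its partners, and ROR, which activate them. In the kidney the clock is known for daily changes in filtration, salt and water excretion and metabolism, on top of which feeding, body temperature and adrenal hormones impose rhythms of their own.

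Night and day kidneys differed in the clock itself, in chaperones of the cytosol and the endoplasmic reticulum, and in single metabolic enzymes that moved by several-fold. Of 16150 genes tested, 1050 passed an adjusted p of 0.05 ("called"), which is 6.50% of all genes. At ZT16, 463 genes were higher (2.87%) and 587 were lower (3.63%). These shares are the background for every count of called list members below. The called changes were mostly small, 0.595 on the log2 scale at the median of their sizes, and 90 genes were at least 2-fold higher and 91 at least 2-fold lower. In bulk tissue, fewer cells of a type and less RNA per cell cannot be told apart.

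**Figure D1:**
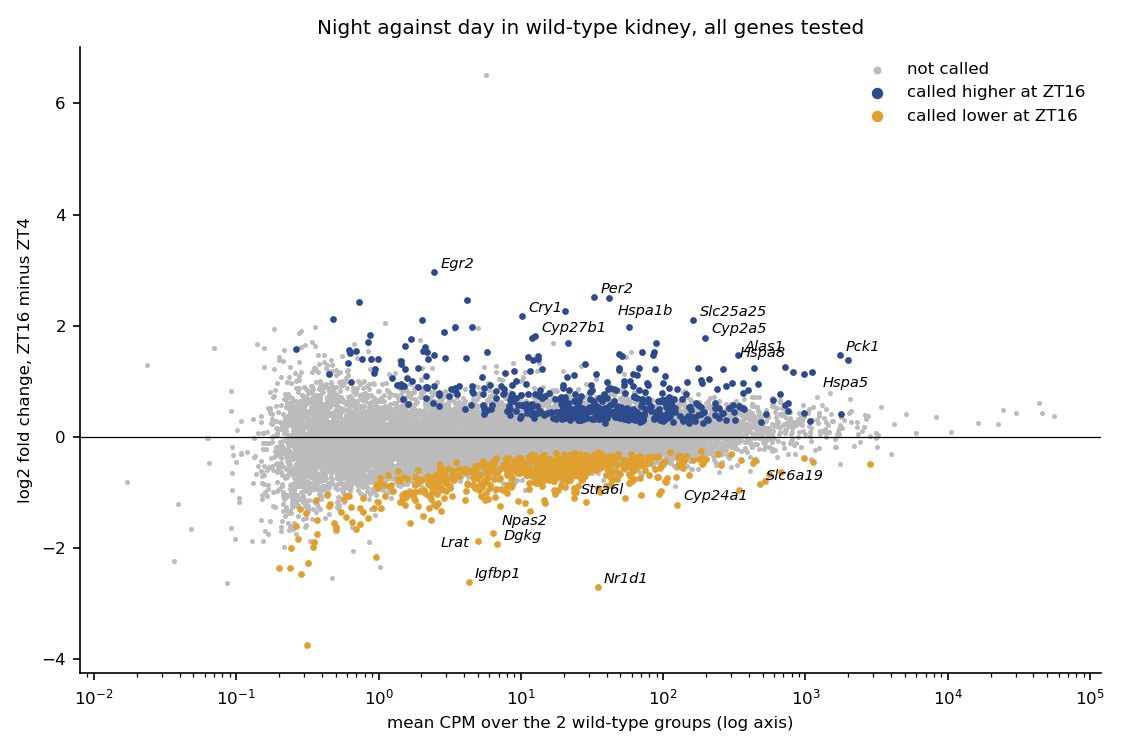
Mean level over the wild-type groups (CPM, log axis) against the log2 fold change, ZT16 minus ZT4, for every gene tested. Blue and orange points are the 463 genes called higher and the 587 called lower, grey points are not called, and the named genes lie far from the line of no change.

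Gene counts summed to between 27139383 and 38043491 per wild-type library, and levels are given below as CPM, counts scaled to library size by TMM and set to a common total. The first principal component of the 6 libraries held 53.1% of their variance and separated the 3 ZT4 libraries (-36.26 to -15.79) from the 3 ZT16 libraries (15.40 to 38.01). Measures that can be technical or biological moved with time as well. Mitochondrially encoded genes took 16.3% to 18% of the counts at ZT4 and 18.7% to 22.4% at ZT16, and log2 fold changes across 14072 protein-coding genes correlated with exonic length (Spearman -0.288) and with GC content (-0.273). With offsets for GC content and length, 880 of the 979 called protein-coding genes kept their call and 0 changed sign. The count also moved with one KO library, ZT16 replicate 2: without it 5473 genes were called, and 3557 of 15588 (22.8%) in a fit of the 6 wild-type libraries alone, which held 1042 of the 1050. Because leaving out 1 wild-type library lowered the count to between 220 (without WT ZT4 replicate 5) and 621, the libraries whose removal ended a call are named with each gene below. The libraries of the groups did not overlap for 6874 genes (42.6%), 3439 above (21.3%) and 3435 below (21.3%) at ZT16, so a lack of overlap alone marks no gene. With each wild-type library left out in turn, 56 of the 91 called genes named here kept their call throughout in the fit of 12 libraries and 87 in the fit of 6.

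Among the E-box repressors, the genes whose proteins shut off BMAL1, 4 of 9 were called higher at ZT16 and 0 lower, with a median log2 fold change of 0.600 against -0.009 over all genes. Per2, a Period gene, stood at 8.18, 9.96 and 11.1 CPM in the ZT4 libraries and at 56.1, 53.5 and 57.2 in the ZT16 libraries. Every night library was more than 4 times above the highest day library, and the log2 fold change was 2.51 (SE 0.19, adjusted p = 3.26e-05). Cry1, a Cryptochrome that arrives late in the cycle in most tissues, read 4.27, 3.01 and 3.74 CPM by day and 15.2, 18.5 and 16.3 by night. The groups lay far apart, with a log2 fold change of 2.17 (SE 0.15, adjusted p = 2.57e-05). Per3 rose less, from 16.6, 19.7 and 23.3 CPM to 31.2, 34.7 and 33.5, a log2 fold change of 0.73 (SE 0.13, adjusted p = 0.00991) with no overlap of libraries. Bhlhe40, which encodes the E-box competitor DEC1, went from 56.5, 70.3 and 73.6 to 126, 148 and 121 CPM, a change of 0.98 (SE 0.21, adjusted p = 0.0191), though its adjusted p was up to 0.0717 without WT ZT4 replicate 1, WT ZT4 replicate 5, WT ZT16 replicate 3 or WT ZT16 replicate 5. The remaining 5 did not pass. Per1 read 10.2, 10.2 and 20.7 CPM by day and 25.8, 18.7 and 17.9 by night, and day replicate 5 lay inside the night range. Cry2 had a log2 fold change of 0.41 (SE 0.13, adjusted p = 0.0755). Its groups did not overlap, and its adjusted p was 0.0223 in the fit of 6 libraries, up to 0.0713 with 1 of those left out. Ciart (0.46), Bhlhe41 (0.26) and Timeless (-0.26) had adjusted p-values of 0.4, 0.537 and 0.263.

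On the activator side, 2 of 4 genes were called lower at ZT16 and 0 higher. Npas2, a partner of BMAL1, stood at 10.5, 7.82 and 11 CPM by day and 2.89, 3.36 and 2.57 by night. The lowest day library was more than double the highest night library, and the gene fell by 1.73 on the log2 scale (SE 0.19, adjusted p = 0.000533). Arntl itself went from 20.01, 15.3 and 13.8 to 10.5, 8.63 and 11.03 CPM, again without overlap. It fell by 0.70 on the log2 scale (SE 0.15, adjusted p = 0.018), with an adjusted p of up to 0.0639 without WT ZT4 replicate 1 or WT ZT16 replicate 3. Clock, the main partner, did not pass (70.3, 66.9 and 62.6 CPM by day, 73.6, 68.7 and 83.3 by night, log2 fold change 0.17 (SE 0.09, adjusted p = 0.193)), and neither did Arntl2 (-0.01, adjusted p = 0.999).

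In the second loop, Nr1d1, which encodes REV-ERBα, a repressor of Arntl and Npas2, was at 51.5, 60.5 and 68.5 CPM in the day libraries and 11, 8.15 and 8.67 in the night libraries. It fell by 2.70 on the log2 scale (SE 0.16, adjusted p = 1.45e-05). Its groups were far apart, and it kept its call with each library left out. The paralogue Nr1d2, REV-ERBβ, overlapped between times (94.3, 117 and 105 against 96.3, 112 and 105 CPM), with a log2 fold change of -0.01 (SE 0.14, adjusted p = 0.957). Rora (0.09) and Rorb (0.59), which encode activating receptors of the loop, did not pass either (adjusted p = 0.53 and 0.273).

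The PAR bZIP factors DBP, TEF and HLF activate D-box genes, and NFIL3 represses them. Of these 4 genes only Nfil3 was called, higher at ZT16, with 7.62, 5.19 and 5.45 CPM by day and 11.9, 12.5 and 25.04 by night. The night libraries were all above the day libraries, but replicate 5 at ZT16 was about double its group mates. The log2 fold change was 1.43 (SE 0.27, adjusted p = 0.0117), with an adjusted p of up to 0.0668 without WT ZT4 replicate 5. Dbp, which in many tissues changes more than any other clock output, differed here by -0.39 on the log2 scale (SE 0.19, adjusted p = 0.192), from 23.5, 32.3 and 29.9 to 23.2, 20.9 and 21.3 CPM. Its groups did not overlap, and its adjusted p was 0.0362 in the fit of 6 libraries, up to 0.113 with 1 of those left out. Dbp shares 18% of its exonic bases with Sphk2 on the other strand, and the strand setting of the counting is not given in the sources used here. Tef (0.10 (SE 0.09, adjusted p = 0.47)) and Hlf (0.34 (SE 0.12, adjusted p = 0.0942)) did not pass. Only ZT4 and ZT16 were sampled, so for these and all other genes a small difference does not show the lack of a rhythm. Among 11 kinases and turnover factors of clock proteins, Usp2 was higher (0.65, adjusted p = 0.0306) and Btrc lower (-0.52, adjusted p = 0.0413), and both calls were lost with each of the 6 wild-type libraries left out.

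**Figure D2:**
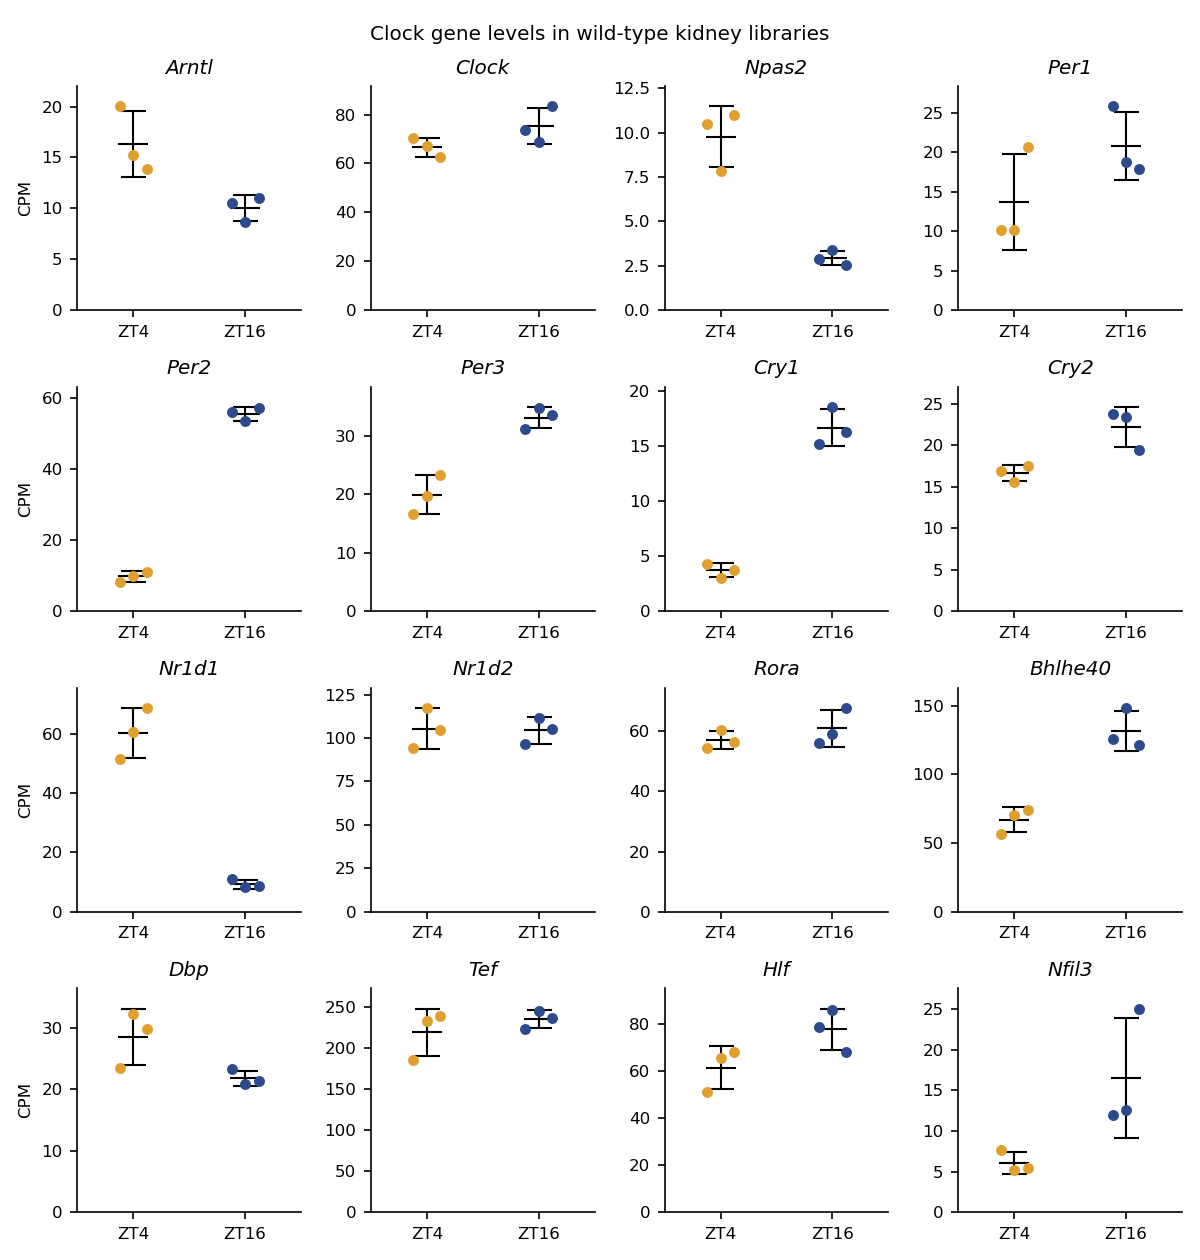
Levels of 16 clock genes in CPM (linear axes from 0), ZT4 in orange and ZT16 in blue. Points are libraries (3 a group), the long bar is the mean and the whiskers 1 SD. Per2 and Cry1 stand clear above and Nr1d1 and Npas2 clear below their day values, while Nr1d2, Tef and Rora overlap.

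Rhythmic output genes, a list of known clock-driven transcripts, held 10 of 16 members called higher and 0 lower (median 0.722), the largest share of any clock list. With 1 library left out the count was between 6 (without WT ZT4 replicate 5) and 9. Alas1, the rate-limiting enzyme of haem synthesis, rose from 208, 181 and 147 CPM to 467, 544 and 478, a log2 fold change of 1.47 (SE 0.12, adjusted p = 5.87e-05). Every night library was more than double every day library. Noct, which encodes nocturnin, a phosphatase named for its night peak, went from 6.39, 6.84 and 8.09 to 26.3, 17.4 and 14.6 CPM (1.45 (SE 0.22, adjusted p = 0.00392)). Wee1, a kinase that holds back mitosis, stood at 6.39, 5.98 and 5.55 and then 11.7, 10.7 and 11.97 CPM (0.94 (SE 0.15, adjusted p = 0.00609)). Both kept apart by time in all 6 libraries. Lonrf3 was low but clear, at 2.66, 1.88 and 2.18 against 5.64, 5.52 and 6.83 CPM (1.41 (SE 0.20, adjusted p = 0.00324)). Coq10b, which serves coenzyme Q in mitochondria, went from 38.4, 45.4 and 36.7 to 84.2, 97.2 and 105 CPM (1.25 (SE 0.16, adjusted p = 0.00139)). Nampt, which makes the NAD precursor NMN, changed by 0.92 (SE 0.19, adjusted p = 0.0189), with an adjusted p of up to 0.0939 without WT ZT4 replicate 1, WT ZT4 replicate 5 or WT ZT16 replicate 5. Tspan4 changed by 0.80 (SE 0.14, adjusted p = 0.00848), with an adjusted p of up to 0.0516 without WT ZT4 replicate 5, and shares 13.4% of its exonic bases with Chid1 on the other strand. Among members that did not pass were Por (-0.11), the electron donor of cytochrome P450 enzymes, and Gys2 (-0.09), a glycogen synthase (adjusted p = 0.639 and 0.486).

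Because the clock pair binds the E-box CACGTG, a palindrome that reads alike on both strands, promoter windows from 250 bases before to 50 after the start were searched in RefSeq (GRCm38.p6), where 11559 of the tested genes had an entry. The E-box was present in 9 of 38 genes of the clock lists (23.7%), in 1313 of all 11559 (11.4%), in 45 of 333 genes called higher (13.5%) and in 44 of 430 called lower (10.2%). Of the 9 clock-list genes with the motif 4 were called higher, as were 7 of the 29 without it. Those 4 are Cry1, Lonrf3, Tspan4 and Coq10b. For 3 of them the motif is shown in capitals with 30 bases on either side, written 5′ to 3′ on the strand of the gene: Cry1 at chr10:85185079-85185144 (minus strand), Lonrf3 at chrX:36328334-36328399 (plus strand) and Coq10b at chr1:55052662-55052727 (plus strand).
Cry1: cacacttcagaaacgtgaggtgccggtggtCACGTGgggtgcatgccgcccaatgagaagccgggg
Lonrf3: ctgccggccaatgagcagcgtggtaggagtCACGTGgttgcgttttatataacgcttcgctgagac
Coq10b: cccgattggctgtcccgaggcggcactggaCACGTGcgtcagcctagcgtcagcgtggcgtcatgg
A match describes these letters only, and binding was not measured here.

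Heat shock chaperones fold proteins in the cytosol and are switched on when temperature or protein damage rises. Of 22 tested, 14 were called higher at ZT16 and 0 lower. That share, 63.6%, was the highest of any list, just above the 62.5% of rhythmic output genes. The lists were chosen with earlier results of these data known. All 22 chaperones had a positive log2 fold change (median 0.664). Hspa1b, the inducible HSP70, went from 10.5, 12.7 and 14.6 CPM to 74.7, 64.2 and 74.1, a log2 fold change of 2.49 (SE 0.24, adjusted p = 0.000247). Its near-identical neighbour Hspa1a went from 5.32, 6.39 and 9.31 to 39.5, 31.97 and 29.8 CPM (2.27 (SE 0.31, adjusted p = 0.00249)), and reads of the pair may be split between them. Night libraries were at least 3 times above day libraries for both. The constitutive HSP70 gene Hspa8 rose from 446, 447 and 384 to 1079.5, 867 and 1114 CPM (1.26 (SE 0.14, adjusted p = 0.000533)). Its cochaperones followed: Dnajb1 (1.2 (SE 0.13, adjusted p = 0.000508)) and Dnaja1 (0.99 (SE 0.10, adjusted p = 0.000254)), which hand clients to HSP70, and Hsph1 (1.04 (SE 0.14, adjusted p = 0.00252)), which recycles it. Dnajb1 read 26.6, 30.9 and 32.3 CPM by day and 68.01, 67.1 and 70.9 by night. Hsp90aa1, the inducible HSP90, changed by 1.02 (SE 0.18, adjusted p = 0.00827), with an adjusted p of up to 0.0526 without WT ZT4 replicate 5. With 1 library left out, between 8 (without WT ZT4 replicate 5) and 14 members were called. A heat shock element, searched as GAA, TTC and GAA in a row (or TTC, GAA and TTC) with 2 bases between neighbours, on both strands, was present in 4 of the 17 members with a promoter window (23.5%) and in 64 of all 11559 genes (0.554%). Of the 4 members with the element 2 were called higher, as were 10 of the 13 without it. It was in 7 of 333 genes called higher (2.1%), which include those 2 members, and in 3 of 430 called lower (0.698%). Hspa1a, Hspa1b, Dnaja1 and Dnajb1 had no match. A gene without a match may still hold the element in a looser form or outside the window.

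Among 7 RNA-binding and splicing proteins whose levels are known to follow temperature, 2 were higher, 1 was lower and 4 did not pass. Cirbp, the cold-inducible RNA-binding protein, read 26.8, 32.1 and 38.5 CPM by day and 14.9, 20.01 and 13.9 by night. It fell by 0.99 on the log2 scale (SE 0.16, adjusted p = 0.0053), and the groups did not overlap. Sfpq, a splicing and paraspeckle protein, rose from 55.3, 67.6 and 62.1 to 89.9, 109 and 85.6 CPM (0.62 (SE 0.11, adjusted p = 0.00985)). The second cold-inducible gene, Rbm3, went the other way from Cirbp, from 20.1, 19.4 and 19.6 to 28.5, 26.1 and 28.4 CPM (0.49 (SE 0.13, adjusted p = 0.0451)), with an adjusted p up to 0.16 with 1 of the 6 libraries left out, and lost with each of them.

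Chaperones and stress regulators of the endoplasmic reticulum (ER), where secreted and membrane proteins fold, were called higher in 12 of 23 cases and lower in 0 (median 0.521). With 1 library left out the count was between 7 (without WT ZT4 replicate 5) and 12. Hspa5, which encodes BiP, the main HSP70 of the ER, read 891, 653 and 514 CPM by day and 1426, 1446 and 1729.5 by night. Its day libraries were spread, yet all lay below the night libraries, and the log2 fold change was 1.16 (SE 0.21, adjusted p = 0.00972). Manf, a secreted ER cofactor, went from 58.6, 43.00 and 32.4 to 133, 114 and 125 CPM (1.47 (SE 0.20, adjusted p = 0.00221)). Creld2, another ER stress product, followed from 39.4, 23.5 and 19.9 to 79.4, 70.6 and 77.9 CPM (1.46 (SE 0.22, adjusted p = 0.00401)). For all 3 genes WT ZT4 replicate 1 was the highest day library. Herpud1, part of the machinery that removes misfolded ER proteins, showed the tightest groups, with 248, 256 and 237 CPM by day and 476, 489 and 483 by night (0.97 (SE 0.08, adjusted p = 5.87e-05)). Dnajb9, a BiP cochaperone, changed by 0.81 (SE 0.09, adjusted p = 0.000533). The stress transcription factors moved as well. Ddit3, which encodes CHOP, went from 8.36, 12.1 and 9.83 to 24.8, 38.98 and 33.6 CPM (1.69 (SE 0.20, adjusted p = 8e-04)), and Atf4, its upstream activator, changed by 0.64 (SE 0.09, adjusted p = 0.00308). Xbp1, the target of IRE1 splicing, changed by 0.87 (SE 0.15, adjusted p = 0.00821), with an adjusted p of up to 0.0517 without WT ZT4 replicate 5. Pdia3, an abundant disulphide isomerase of the same compartment, did not pass, at 576, 579 and 499 against 596, 569.7 and 606 CPM (0.10 (SE 0.10, adjusted p = 0.49)).

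The ER stress element, CCAAT and CCACG with 9 bases between them, the sequence through which ATF6 and XBP1 are known to act, was searched on both strands of the same windows. It occurred in 8 of the 20 ER genes with a window (40%) and in only 19 of all 11559 genes (0.164%). It was in 5 of 333 genes called higher (1.5%) and in 0 of 430 called lower. Those 5 include the 4 list members named below, so this count is not separate from that of the list. Within the list, 4 of the 8 genes with the element were called higher, as were 7 of the 12 without it. The 4 are Hspa5, Creld2, Hsp90b1, the ER HSP90, and Dnajc3, an inhibitor of the kinase PERK. Hsp90b1 changed by 0.58 (SE 0.15, adjusted p = 0.0372), with an adjusted p of up to 0.168 without WT ZT4 replicate 3, WT ZT4 replicate 5, WT ZT16 replicate 1, WT ZT16 replicate 3 or WT ZT16 replicate 5. Dnajc3 changed by 0.30 (SE 0.08, adjusted p = 0.0417), with an adjusted p up to 0.185 with 1 of the 6 libraries left out, and lost with each of them. The element is shown in capitals with 30 bases on either side on the strand of the gene, all plus strand, for Hspa5 at chr2:34771995-34772073, Creld2 at chr15:88819490-88819568, where it lies in the reverse orientation, and Dnajc3 at chr14:118937797-118937875.
Hspa5: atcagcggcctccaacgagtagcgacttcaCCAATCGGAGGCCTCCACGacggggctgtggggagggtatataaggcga
Creld2: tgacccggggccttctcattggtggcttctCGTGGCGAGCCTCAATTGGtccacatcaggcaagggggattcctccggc
Dnajc3: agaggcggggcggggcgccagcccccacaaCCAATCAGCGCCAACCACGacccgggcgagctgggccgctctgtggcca

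**Figure D3:**
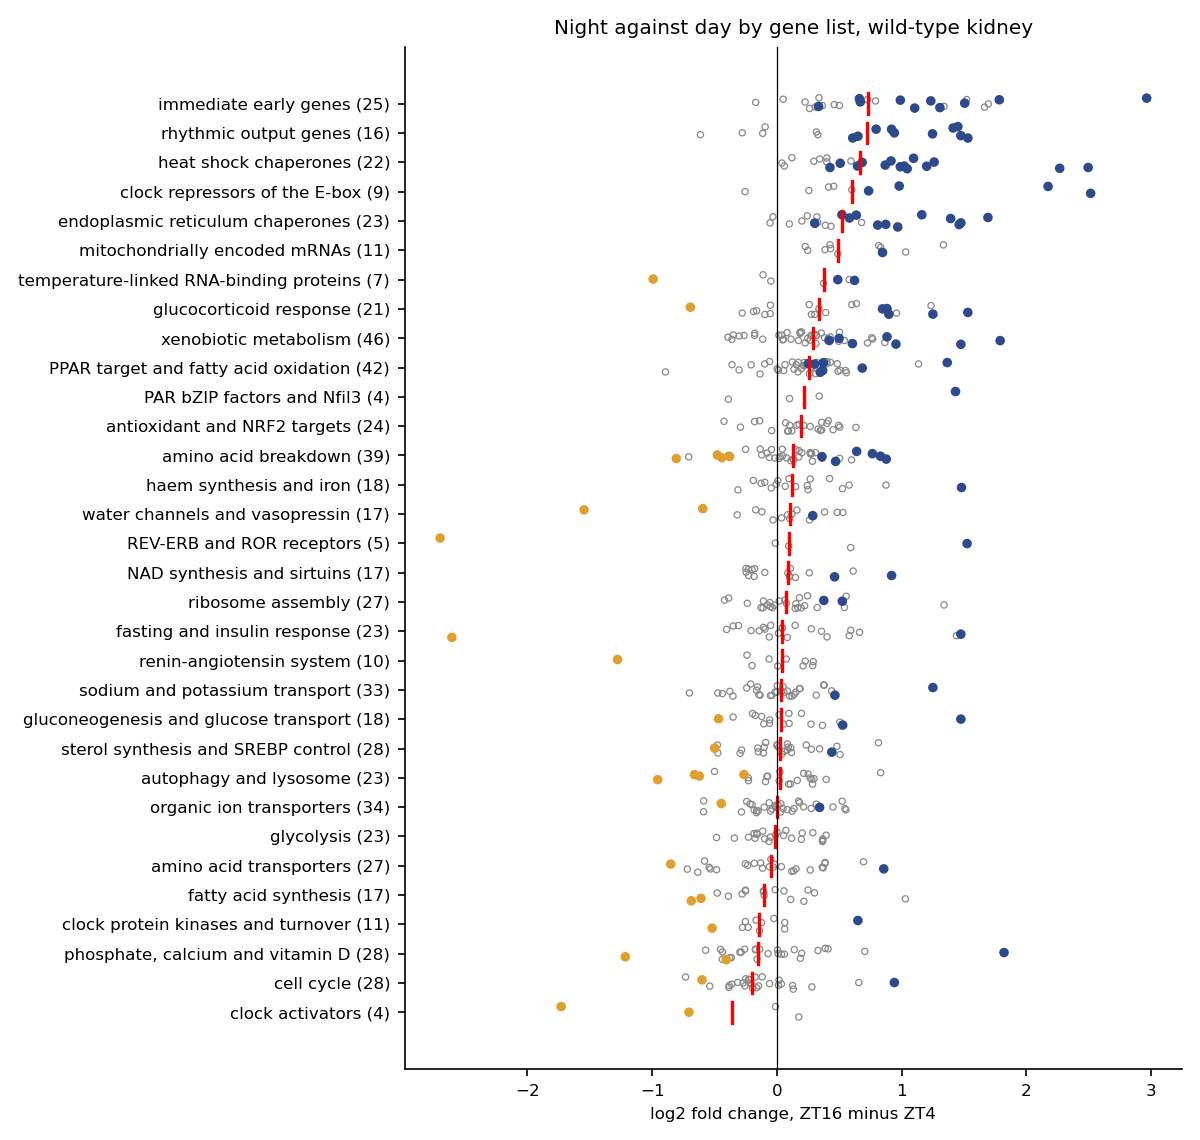
Log2 fold change, ZT16 minus ZT4, of every tested member of 32 gene lists, with the number tested in brackets and lists ordered by their median (red bar). Filled points are called (blue higher, orange lower) and open points are not. Heat shock chaperones lie wholly to the right of 0, and glycolysis has no called member.

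Glucocorticoids from the adrenal gland peak in mice around lights off and act on the kidney through the glucocorticoid receptor. Of 21 response genes tested, 5 were called higher and 1 lower (median 0.337). Tsc22d3, which encodes the glucocorticoid-induced leucine zipper GILZ, went from 35.9, 38.2 and 35.1 to 116, 114 and 84.5 CPM (1.53 (SE 0.15, adjusted p = 0.000247)). Sgk1, the kinase that raises sodium uptake in the distal nephron, went from 103, 109.8 and 98.7 to 252, 298 and 190.2 CPM (1.25 (SE 0.19, adjusted p = 0.00397)). Fkbp5, a receptor cochaperone, followed at 48.2, 51.00 and 45.2 against 85.1, 93.7 and 80.8 CPM (0.85 (SE 0.14, adjusted p = 0.00736)). The 3 genes were higher in every night library. Sult1a1, a sulphotransferase, changed by 0.88 (SE 0.15, adjusted p = 0.00686). Per1 and Klf9, also direct targets in many tissues, did not pass (log2 fold change 0.60 and -0.28, adjusted p = 0.225 and 0.22). The member called lower was Mt2, a metallothionein (-0.69, adjusted p = 0.0337), with an adjusted p of up to 0.128 without WT ZT4 replicate 1, WT ZT4 replicate 3, WT ZT4 replicate 5, WT ZT16 replicate 3 or WT ZT16 replicate 5.

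Immediate early genes, which respond to stimuli within minutes, had the highest median of any list (0.726, against 0.722 for rhythmic output genes). Of 25 tested, 10 were called higher and 0 lower. With 1 library left out the count was between 2 (without WT ZT4 replicate 5) and 8. Egr2, a zinc finger factor, went from 0.209, 0.714 and 0.766 to 5.98, 3.76 and 3.33 CPM, the largest called rise, with a log2 fold change of 2.96 (SE 0.44, adjusted p = 0.00367). Ier3 went from 25.3, 24.96 and 31.2 to 52.4, 63.1 and 46.2 CPM (0.99 (SE 0.14, adjusted p = 0.00279)). These 2 kept their call with each library left out. Fos, a subunit of the AP-1 dimer, read 3.70, 8.68 and 3.89 CPM by day and 21.5, 20.6 and 13.3 by night (1.78 (SE 0.45, adjusted p = 0.0392)), with an adjusted p of up to 0.172 without WT ZT4 replicate 1, WT ZT4 replicate 5, WT ZT16 replicate 1, WT ZT16 replicate 3 or WT ZT16 replicate 5. Junb changed by 1.31 (SE 0.29, adjusted p = 0.0232), with an adjusted p of up to 0.118 without WT ZT4 replicate 1, WT ZT4 replicate 5, WT ZT16 replicate 3 or WT ZT16 replicate 5. Nr4a3, an orphan nuclear receptor, changed by 1.505 (SE 0.29, adjusted p = 0.013), with an adjusted p of up to 0.0625 without WT ZT4 replicate 5.

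**Figure D4:**
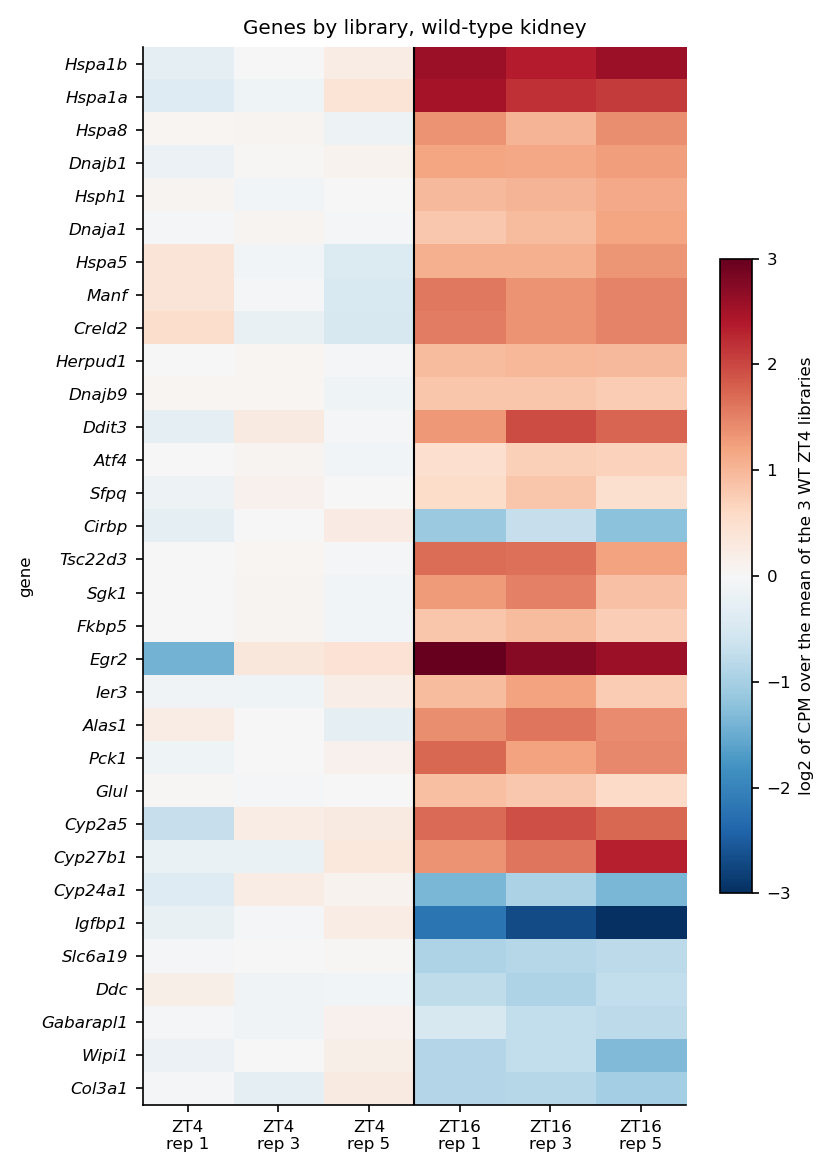
Level of 32 genes named in the text in each of the 6 wild-type libraries, as log2 of CPM over the mean of the 3 ZT4 libraries (red higher, blue lower, colours saturated at the ends of the scale). All 3 ZT16 libraries lie on one side of all 3 ZT4 libraries for each gene shown, from Hspa1b and Egr2 at the high end to Igfbp1 at the low end.

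In the metabolic lists few members were called, some of them with large changes. Pck1, the enzyme that commits carbon to glucose production in the proximal tubule, went from 835, 923 and 1003 CPM to 3033, 2139 and 2500.1, a log2 fold change of 1.47 (SE 0.14, adjusted p = 0.000247). In the list of fasting and insulin response it was the only one of 23 members called higher. The only member called lower was Igfbp1, a binding protein of insulin-like growth factors that insulin represses, at 6.27, 7.18 and 8.67 CPM by day and 1.62, 1.15 and 0.867 by night. It fell by 2.61 on the log2 scale (SE 0.27, adjusted p = 0.000314). The shares of the list were near the background of all genes. Of 18 genes of glucose production and transport, Slc37a4, the glucose 6-phosphate transporter, was the other called higher (0.53 (SE 0.14, adjusted p = 0.042)), with an adjusted p of up to 0.182 without WT ZT4 replicate 1, WT ZT4 replicate 5, WT ZT16 replicate 1, WT ZT16 replicate 3 or WT ZT16 replicate 5. Slc2a2, the basolateral glucose carrier GLUT2, was called lower: it went from 214, 234 and 217 to 162, 166 and 153 CPM (-0.47 (SE 0.09, adjusted p = 0.0115)), with an adjusted p of up to 0.0641 without WT ZT16 replicate 5. None of 23 glycolysis genes and none of 24 antioxidant genes were called in the fit of 12 libraries. The fit of 6 libraries called 1 and 9 of them higher and 0 and 1 lower.

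Of 42 genes of fatty acid oxidation and PPAR targets, 35 had a positive log2 fold change (median 0.255). They were called higher in 7 cases and lower in 0 (16.7% against 6.50% of all genes). The count fell to 0 without WT ZT4 replicate 5 and rose to 16 in the fit of the 6 wild-type libraries alone. Pex11a, which divides peroxisomes, shows the size of these changes, with 57.8, 58.3 and 57.2 CPM by day and 74.7, 73.6 and 72.00 by night (0.35 (SE 0.06, adjusted p = 0.0106)) and an adjusted p of up to 0.0572 without WT ZT4 replicate 5. Fatty acid synthesis went the other way in 2 of 17 genes, and in 0 (without WT ZT4 replicate 5 or WT ZT16 replicate 3) or 1 with 1 library left out. One was Gpam, the first enzyme of triglyceride assembly, with 95.5, 94.3 and 104 CPM by day and 63.4, 53.4 and 66.03 by night (-0.69 (SE 0.13, adjusted p = 0.0139)), with an adjusted p of up to 0.0713 without WT ZT4 replicate 5 or WT ZT16 replicate 3. Sterol synthesis held 1 member called higher and 1 lower of 28 (7.14% against 6.50% of all genes). The first was lost without any of 5 of the 6 libraries and the second without any of the 6.

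Amino acid enzymes were called in both directions, 6 higher and 4 lower of 39 (25.6% against 6.50% of all genes). Between 1 and 3 were called in each direction once 1 library was left out (lowest without WT ZT4 replicate 5 or WT ZT16 replicate 5). Glul, glutamine synthetase, rose from 500.0, 470.2 and 496 to 911, 853 and 729 CPM (0.76 (SE 0.10, adjusted p = 0.00139)). Ddc, which makes dopamine in the proximal tubule, went from 149.7, 123 and 126 to 78.6, 69.6 and 80.2 CPM and fell by 0.81 on the log2 scale (SE 0.10, adjusted p = 0.0017). Both held with each library left out. Amt, of the glycine cleavage system, changed by -0.44 (SE 0.08, adjusted p = 0.00996), with an adjusted p of up to 0.0597 without WT ZT4 replicate 5 or WT ZT16 replicate 5. Among 27 amino acid transporters, Slc6a19, the main neutral amino acid carrier of the proximal brush border, went from 600.1, 613 and 629 to 325, 341 and 356 CPM and fell by 0.85 on the log2 scale (SE 0.13, adjusted p = 0.00391). Its groups were tight and far apart.

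Xenobiotic metabolism had 7 of 46 genes called higher and 0 lower (15.2% against 6.50% of all genes, median 0.288). Between 3 and 7 were called higher once 1 library was left out (lowest without WT ZT4 replicate 5 or WT ZT16 replicate 5). Cyp2a5, a cytochrome P450 with close paralogues that can share its reads, went from 55.02, 104 and 107 to 288, 339 and 295 CPM (1.79 (SE 0.31, adjusted p = 0.0085)). Replicate 1 was the lowest day library, and all 3 night libraries were above the highest. Ephx1, microsomal epoxide hydrolase, changed by 0.50 (SE 0.09, adjusted p = 0.0121), with an adjusted p of up to 0.0709 without WT ZT4 replicate 5 or WT ZT16 replicate 5. Of 23 autophagy and lysosome genes, 4 were called lower and 0 higher (17.4% against 6.50% of all genes). The list as a whole did not lean down: 13 members had a positive and 10 a negative log2 fold change (median 0.024). The fit of 6 libraries called 4 higher and 5 lower, and the GC and length offsets 3 and 3. Gabarapl1, a ubiquitin-like protein of the autophagosome, went from 660.0, 632 and 746 to 485, 408 and 395 CPM (-0.66 (SE 0.11, adjusted p = 0.0053)), and shares 28.3% of its exonic bases with 1700101I11Rik on the other strand. Wipi1, an early autophagosome factor, went from 21.2, 23.9 and 27.1 to 13.1, 14.5 and 9.54 CPM (-0.96 (SE 0.16, adjusted p = 0.00775)). These 2 were the members that remained when 1 library was left out.

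In the vitamin D pathway, the activating and the inactivating enzyme moved in opposite directions. Cyp27b1, the 1-alpha-hydroxylase that makes the active hormone in the proximal tubule, went from 4.87, 4.89 and 6.95 to 14.2, 16.9 and 28.1 CPM (1.82 (SE 0.26, adjusted p = 0.00324)). Cyp24a1, the 24-hydroxylase that degrades it, went from 134, 205 and 189 to 68.1, 90.6 and 68.4 CPM and fell by 1.22 on the log2 scale (SE 0.21, adjusted p = 0.0079). Neither overlapped between times, and both held with each library left out. Slc20a2, a phosphate carrier, was the only other one of 28 genes called for phosphate, calcium and vitamin D (10.7% against 6.50% of all genes). It fell by 0.41 on the log2 scale (SE 0.07, adjusted p = 0.0101), with an adjusted p of up to 0.0597 without WT ZT4 replicate 5.

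Transporters of salt were called about as often as genes in general (6.06% against 6.50%). Of 33 sodium and potassium transport genes 2 were called higher (Sgk1, given above, and the potassium channel Kcnk1, 0.47, adjusted p = 0.0168 and up to 0.0903 without WT ZT4 replicate 5, WT ZT16 replicate 1 or WT ZT16 replicate 5) and 0 lower. Of 17 water channel and vasopressin genes, 1 was called higher and 2 lower (17.6% against 6.50% of all genes). Aqp1, the water channel of the proximal tubule, changed by 0.29 (SE 0.08, adjusted p = 0.0478), with an adjusted p up to 0.198 with 1 of the 6 libraries left out, and lost with each of them. Avpr1a, a vasopressin receptor, went from 13.4, 11.8 and 13.2 to 9.76, 7.45 and 8.25 CPM (-0.59 (SE 0.12, adjusted p = 0.0159)), with an adjusted p of up to 0.0761 without WT ZT4 replicate 1, WT ZT4 replicate 5, WT ZT16 replicate 3 or WT ZT16 replicate 5. Aqp8 went from 2.51, 2.74 and 2.18 to 0.756, 0.869 and 0.902 CPM (-1.55 (SE 0.33, adjusted p = 0.0206)), with an adjusted p up to 0.0776 with 1 of the 6 libraries left out, and lost with each of them. Organic ion transporters held 1 called higher and 1 lower of 34 (5.88% against 6.50% of all genes), both lost with each library left out. In the renin-angiotensin system only Mas1, the receptor for angiotensin 1-7, was called, lower (-1.28, adjusted p = 0.00252), out of 10 genes. Its call held with each library left out. The span of Mas1 overlaps that of Airn, a gene on the other strand that also fell (-1.33, given below). The strand setting of the counting is not given, and whether reads of Airn entered the count of Mas1 was not tested.

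Markers of kidney cell types and of neighbouring tissues were summed in each library. Markers of the proximal tubule summed to between 12700 and 13700 CPM at ZT4 and to between 11500 and 12600 at ZT16 for segments S1 and S2. For segment S3 the sum went the other way, from between 38700 and 51200 CPM at ZT4 to between 51400 and 81900 at ZT16, with no overlap and 0 of 9 markers called. Most of that sum was Kap, the kidney androgen-regulated protein, at 34700 ± 6100 CPM by day and 53200 ± 15800 by night (SD, n = 3; log2 fold change 0.615, edgeR adjusted p = 0.226). Adrenal cortex markers summed to less than 1 CPM in every library, from 0.643 to 0.986 by day and from 0.659 to 0.925 by night. Fat markers summed to between 64.0 and 87.3 CPM by day and to between 82.4 and 89.0 by night, with 0 of 8 called. Podocyte markers ranged from 256 to 312 CPM by day and from 207 to 255 by night, and 1 of 10 was called (10% against 6.50% of all genes). Of 12 fibroblast and smooth muscle markers 3 were called lower, among them the collagens Col3a1 (43.9, 37.96 and 55.2 to 25.02, 25.1 and 22.6 CPM, -0.91 (SE 0.12, adjusted p = 0.0024)) and Col1a1 (-1.13 (SE 0.29, adjusted p = 0.0392)), the latter with an adjusted p of up to 0.179 without WT ZT4 replicate 1, WT ZT4 replicate 5, WT ZT16 replicate 3 or WT ZT16 replicate 5. With 1 library left out, between 1 (without WT ZT4 replicate 1, WT ZT4 replicate 5, WT ZT16 replicate 3 or WT ZT16 replicate 5) and 3 were called lower. The summed level of that list was 450 to 519 CPM by day and 445 to 459 by night. In the thick ascending limb 2 of 9 markers were called higher, including Tmem207 (0.64 (SE 0.12, adjusted p = 0.00988)), with an adjusted p of up to 0.0513 without WT ZT16 replicate 5, and the count was 0 (without WT ZT16 replicate 5) or 1 with 1 library left out. Of the 10 markers of segments S1 and S2, 1 was called higher and 1 lower, and 8 in all had a negative log2 fold change (median -0.162). The 1 called higher was Nox4, an oxidase of the proximal tubule. Nox4 rose from 444, 472 and 458 to 723, 683 and 767 CPM (0.66 (SE 0.13, adjusted p = 0.0124)), with an adjusted p of up to 0.0607 without WT ZT4 replicate 5 or WT ZT16 replicate 5. None of the markers of macrophages (12), lymphocytes (10), red blood cells (6), principal cells (10), intercalated cells (12) or distal convoluted tubule (8) were called. In the fit of 6 libraries some were: 0 higher and 2 lower for macrophages, 0 and 0 for lymphocytes, 0 and 1 for red blood cells, 3 and 1 for principal cells, 2 and 3 for intercalated cells, and 1 and 0 for distal convoluted tubule. What part cell composition had in the gene changes was not tested.

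Several of the largest changes lay outside these lists. Slc25a25, a mitochondrial carrier of ATP-magnesium and phosphate, went from 42.5, 76.5 and 64.7 to 295, 257 and 238 CPM (2.11 (SE 0.26, adjusted p = 0.00117)). Nat8f6 and Nat8f5, neighbouring acetyltransferase genes that overlap on the same strand, went from 40.7, 53.8 and 30.9 to 134, 130.0 and 142 CPM (1.69 (SE 0.20, adjusted p = 0.00104)) and from 19.7, 36.8 and 14.4 to 92.1, 81.9 and 103 CPM (1.97 (SE 0.28, adjusted p = 0.00279)), and their reads cannot be fully told apart. All 3 were higher in every night library. Clec2d changed by 1.49 (SE 0.37, adjusted p = 0.0357), with 1 night library far above the others and an adjusted p of up to 0.153 without WT ZT4 replicate 1, WT ZT4 replicate 3, WT ZT4 replicate 5, WT ZT16 replicate 1 or WT ZT16 replicate 5.

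Falls of comparable size were found in Lrat, which esterifies retinol for storage, from 8.42, 7.03 and 8.18 to 2.82, 2.07 and 1.56 CPM (-1.87 (SE 0.18, adjusted p = 0.000247)), and in Dgkg, a diacylglycerol kinase, from 9.02, 12.3 and 11.1 to 2.13, 2.86 and 3.50 CPM (-1.93 (SE 0.21, adjusted p = 0.000517)). Stra6l, a retinol-binding protein receptor, is a second retinoid gene that fell, from 34.5, 30.03 and 32.3 to 15.2, 14.8 and 15.4 CPM (-1.09 (SE 0.09, adjusted p = 5.87e-05)). For these 3 genes the lowest day library was well above the highest night library. Slc7a2, a carrier of cationic amino acids (-1.24), the lysoplasmalogenase gene Tmem86a (-1.17), the apelin receptor gene Aplnr (-1.11), Slc35f3 (-1.19), Greb1l (-1.18), Hmcn2 (-1.16) and Fam13a (-1.10) also fell, with adjusted p-values from 0.00089 to 0.00683. These 10 genes kept their call with each library left out. Airn (-1.33 (SE 0.30, adjusted p = 0.0241)) had an adjusted p of up to 0.0841 without WT ZT4 replicate 1, WT ZT4 replicate 3, WT ZT4 replicate 5, WT ZT16 replicate 1 or WT ZT16 replicate 3, and Bcl6b (-1.13 (SE 0.22, adjusted p = 0.0142)) one of up to 0.0742 without WT ZT4 replicate 5, WT ZT16 replicate 1 or WT ZT16 replicate 5.

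Mitochondrial ribosomal RNAs were among the most abundant called genes. The 16S rRNA gene mt-Rnr2 went from 1142, 1251 and 937 to 2349, 2713 and 3650.2 CPM (1.39 (SE 0.25, adjusted p = 0.0095)), with an adjusted p of up to 0.0572 without WT ZT4 replicate 5. The 12S rRNA gene mt-Rnr1 changed by 1.13 (SE 0.22, adjusted p = 0.0145), with an adjusted p of up to 0.0772 without WT ZT4 replicate 5 or WT ZT16 replicate 5. All 11 mitochondrially encoded mRNAs tested had a positive log2 fold change (median 0.488), but only 1 was called. The mitochondrial share of each library, given above, is summed over these and the other mitochondrial genes, so it is not a separate measure. Libraries were selected for poly(A) RNA, and the part of that selection in these values was not tested.

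Whether the day-night difference depended on tubular BMAL1 was tested as the interaction of time and genotype. It was called for 3 genes (0.0186% of those tested), with 540 at an unadjusted p under 0.05. For a check of the genotype labels, Arntl read 15.95, 14.4 and 16.2 CPM in the KO ZT4 libraries (replicates 2, 4 and 6) and 12.3, 13.4 and 15.01 at ZT16. At ZT4 the KO libraries lay inside the wild-type range and at ZT16 above it. The labels do not name the deleted part of the gene, and a count over the whole gene in whole kidney does not by itself check the deletion. Cry1, which rose in wild type, was among the called genes, with 28.00, 25.9 and 23.4 CPM at ZT4 and 23.8, 30.3 and 30.6 at ZT16 in KO libraries, a log2 fold change of 0.13 (adjusted p = 0.482). Its wild-type minus KO difference was 2.04 (SE 0.20, adjusted p = 0.00134). All KO libraries at both times lay above the wild-type night libraries. Stra6l, also called, fell in wild type and read 38.1, 45.2 and 38.3 and 44.3, 45.6 and 45.9 CPM in KO libraries, a log2 fold change of 0.16 (adjusted p = 0.189) and a difference of -1.25 (SE 0.12, adjusted p = 0.00134). Some other large clock changes of the wild type did not pass this test: Per2 had a difference of 1.42 (SE 0.25, adjusted p = 0.245), Npas2 of -1.30 (SE 0.25, adjusted p = 0.456) and Nr1d1 of -0.93 (SE 0.23, adjusted p = 0.846). A difference that missed the threshold here does not show that the genotypes acted alike.

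**Figure D5:**
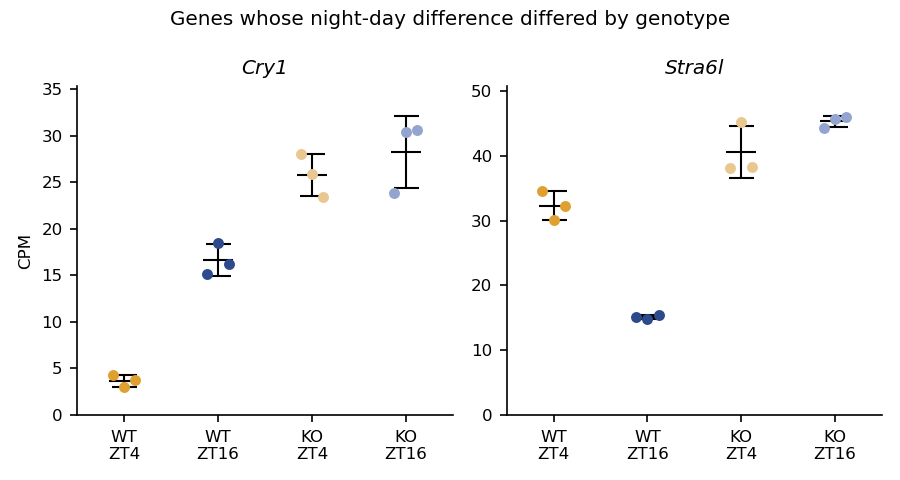
Levels of Cry1 and Stra6l in CPM (linear axes from 0) in all 12 libraries, 3 a group, with the mean (long bar) and 1 SD (whiskers). The wild-type groups are apart by time for each gene, and the KO groups at ZT4 and ZT16 overlap.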

How the data were processed

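RNA of whole kidney was sequenced from poly(A)-selected stranded libraries, per the labels' protocols. Per the submitters' processing notes, the deposited counts per gene were made with cutadapt 1.2.1, TopHat2 2.0.9 on GRCm38 and HTSeq 0.5.4p3. How HTSeq was set for strand and overlaps, and with which annotation, is not given in the sources used here. GENCODE M21 gave symbols to 37607 of the 38924 gene IDs. HTSeq's summary lines were left out (not uniquely aligned reads 34.1% to 36.5% of reads in WT ZT4 and 38.8% to 41.8% in WT ZT16 libraries).

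All 12 libraries entered 1 edgeR 4.0.16 quasi-likelihood fit in R 4.3.3, with TMM scaling, filterByExpr and 8 residual degrees of freedom. P-values were adjusted by Benjamini-Hochberg across the 16150 genes tested, with 0.05 as the limit for a call. SE was derived from the test, as the absolute log2 fold change divided by the square root of the quasi-likelihood F statistic. DESeq2 1.42.0 and limma voom 3.58.1 were alternatives, beside other scalings, filters, offsets for GC content and length, a replicate block and leaving out each library. The fit of 6 libraries with a replicate block, the leave-one-out fits of those 6 and the list counts under each setting were added after seeing the data. Replicates differed beyond sampling noise (chi-square per degree of freedom 12.0 to 45.2). The scripts were tested on simulated data.

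The 47 gene lists and the comparison itself were chosen with earlier results of these data known. Lists are described by counts and medians without a set test, and some share members. Genes were named by rule: clock list members, the 15 largest rises and falls (called, mean of 5 CPM or more, no overlap), the 10 most abundant called genes, up to 5 members with the smallest p per list, and interaction calls. The text names a part of these, mostly genes that kept their call with each library left out, a narrowing made after values were seen, and some genes that the rule names are not reported here. Coordinates and promoter sequences are GRCm38.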

Additional observations from a re-analysis of the deposited data

Results flagged for a closer look

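The night-day difference of Cry1 and of Stra6l differed between wild type and knockout in the test of the interaction. On the log2 scale the wild-type minus knockout value was 2.04 for Cry1 and -1.25 for Stra6l. For both genes the wild-type libraries of ZT4 and ZT16 did not overlap, while the knockout libraries did.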

How the results depend on the processing

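The sign of the 1050 called genes did not change in any of the settings tried, but the count depended on them. It was 1049 with RLE scaling, 1052 without mitochondrial genes, 943 without a filter, 1026 at a mean of at least 5 CPM and 1036 with voom. Upper-quartile scaling called 1194, 398 higher and 796 lower (33.3% higher against 44.1%). DESeq2 called 2149 (959 higher, 1190 lower), adjusted p under 0.01 left 209 (103 and 106), the 6 wild-type libraries alone gave 3557 (1811 and 1746), leaving out KO ZT16 replicate 2 gave 5473 (2871 and 2602), and offsets for GC content and length gave 1712 (816 and 896). Leaving out 1 wild-type library gave 220 to 621 calls (102 to 268 higher, 118 to 353 lower), and in the fit of 6 libraries 1145 to 3361 (638 to 1762 and 507 to 1626). The labels do not say what a replicate number marks. Deviations from the group mean of same-numbered libraries correlated at 0.054, -0.068 and -0.266, and those of differently numbered ones at -0.186 to 0.224. With so few libraries these values cannot decide whether the numbers pair the samples. With a replicate block the count was 229 (130 and 99) and 28 of the 91 called genes named in the text lost their call, with the block and the GC and length offsets 849, and with the block among the 6 wild-type libraries 611 (329 and 282). The interaction count of 3 became 18 with DESeq2, 8 without KO ZT16 replicate 2, 5 without KO ZT16 replicate 4, 9 with GC and length offsets and 1 with the replicate block, where Cry1 (adjusted p = 0.122) and Stra6l (0.0771) did not pass. The cause of these shifts was not tested. Of genes not called, Nr1d2 (-0.01) ranged from -0.10 to 0.07 and Tef (0.10) from -0.01 to 0.17 on the log2 scale with 1 library left out of the fit of 12 or of 6. Library totals of 27139383 to 38043491 counts bound the precision of genes with few counts.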
